A study of Mus musculus with 2 samples.

Results

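The unfolded protein response is the set of signals by which a cell matches the folding capacity of its endoplasmic reticulum (ER) to the protein it secretes. The 32 genes described here are its sensors, its transcription factors and the ER chaperones, degradation factors and translocation subunits that they serve. They were chosen by name and not by a cut on their values, but with earlier results of these data known. All 32 were found among the 27998 genes of the deposited tables, and they held 373016 of the 50183186 UMIs (unique molecular identifiers, each standing for 1 captured transcript) of the cells kept. They were 0.807% of the UMIs in the normal chow diet (NCD) library and 0.626% in the high-fat diet (HFD) library.

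The cells were the stromal vascular fraction of epididymal white adipose tissue, that is, the cells left after adipocytes are removed, from male wild-type C57BL/6J mice aged 18 weeks. One group was fed NCD and the other HFD for 12 weeks, and no allele or agent beyond the diets is named in the labels. Cells were freed from the tissue with collagenase II (1 mg per ml, 37 °C, 30 minutes) and profiled on a droplet platform that counts the 3′ ends of transcripts. Each diet is represented by 1 library, and the labels do not say how many mice it holds, so diet, library and mouse cannot be told apart and no test between diets was possible.

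The NCD library held 7365 barcodes and the HFD library 6840, with medians of 4230 and 2020 UMIs per cell and of 1609 and 945 genes. After filters on quality and doublets 7161 and 6447 cells were kept, and 64 barcodes occurred in both libraries. Cell classes were rebuilt by clustering without the 112 genes of the module and of a wider list of related ER and stress genes, and were named from marker genes. Among them were 23 plasma-like cells in the NCD and 103 in the HFD library, 54 and 10 mesothelial-like, 3289 and 3078 progenitor-like, and 2297 and 2272 macrophage-like cells. Jchain and Mzb1 led the plasma-like clusters, and Upk3b and Krt19 were among the 10 leading genes of the mesothelial-like ones. Stromal genes such as Dcn, Gsn, Clec3b or Col3a1 were among those of the progenitor-like clusters, and C1qa, C1qb, Pf4 or Trem2 among those of the macrophage-like ones. Mzb1 and the plasma marker Derl3 are themselves ER genes, so the plasma-like class was named in part by its secretory machinery. Transcripts that belong to other cell types were more frequent in HFD cells: macrophage markers in progenitor-like cells stood at 3.13% of their level over the whole NCD library and at 25.6% over the HFD library. For stromal markers in macrophage-like cells these values were 3.28% and 28.8%. These transcripts are called free RNA below, but their source was not tested. Levels after their subtraction are given for some values only. Of 38 called member ratios between diets, 23 stayed within their counting interval after it.

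In the resting ER, the chaperone BiP (Hspa5) binds unfolded chains and holds back the sensors IRE1 (Ern1), PERK (Eif2ak3) and ATF6 (Atf6). When unfolded protein accumulates, IRE1 splices the Xbp1 transcript into the form that encodes an active factor, PERK slows translation and favours that of ATF4, and ATF6 is cleaved to release a transcription factor. XBP1 and ATF6 raise chaperones and ER-associated degradation (ERAD), the route by which misfolded proteins are returned to the cytosol and destroyed, and ATF4 raises Ddit3 (CHOP), Trib3 and Atf5. Plasma cells depend on XBP1 for antibody secretion, and adipose progenitors and mesothelial cells secrete collagens and other matrix proteins. Transcript counts at the 3′ end do not separate spliced from unspliced Xbp1 and do not measure the activity of a sensor.

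Many ER chaperone genes carry a known promoter element, the ER stress response element (ERSE), in which a CCAAT box and a CCACG box are separated by 9 bases. ATF6 binds it together with the CCAAT-binding factor NF-Y. The RefSeq promoter windows of the GRCm38.p6 build, from 250 bases before to 50 bases after the annotated start, were searched on both strands for CCAAT, 9 bases of any kind and CCACG, and 28 of the 32 members had a window. Atf6, Hyou1, Manf and Derl1 had none. The element was present in 8 of the 28 (28.6%), against 37 of all 27025 genes with a window (0.137%). ERSE-II, a shorter variant made of ATTGG, 1 base of any kind and CCACG, was searched likewise. None of its matches printed here overlaps a match of the longer element. It was in 2 members (7.14%) and in 12 genes (0.0444%). These members are shown because the diet differences described below can be read against them. Each site is printed 5′ to 3′ on the strand named, with the fixed letters of the element in capitals and 10 flanking bases on each side.
Hspa5, strand + of chr2:34772015-34772053: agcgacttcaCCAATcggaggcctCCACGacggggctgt
Hsp90b1, strand - of chr10:86705628-86705666: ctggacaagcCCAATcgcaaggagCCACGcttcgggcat
Hsp90b1, strand + of chr10:86705523-86705561: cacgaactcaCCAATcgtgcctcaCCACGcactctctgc
Dnajc3, strand + of chr14:118937817-118937855: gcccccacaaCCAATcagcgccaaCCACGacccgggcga
Creld2, strand - of chr15:88819510-88819548: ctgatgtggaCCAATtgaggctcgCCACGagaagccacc
Calr, strand + of chr8:84847065-84847103: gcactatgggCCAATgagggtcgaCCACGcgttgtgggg
Canx, strand - of chr11:50325790-50325828: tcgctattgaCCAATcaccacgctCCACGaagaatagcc
Pdia6, strand + of chr12:17266481-17266519: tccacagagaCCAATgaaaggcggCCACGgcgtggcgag
Syvn1, strand + of chr19:6046522-6046560: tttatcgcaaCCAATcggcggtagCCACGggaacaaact
Dnajb11, ERSE-II, strand + of chr16:22857842-22857872: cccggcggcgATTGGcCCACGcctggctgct
Herpud1, ERSE-II, strand + of chr8:94386367-94386397: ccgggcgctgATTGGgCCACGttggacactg
The Hspa5 element begins 65 bases before the annotated start and that of Syvn1 44 bases before it, while the ERSE-II of Dnajb11 lies 7 bases after it. Hsp90b1, the ER form of Hsp90, was the member with 2 sites. The XBP1-bound letters TGACGTGG were in none of the 28 members with a window and in 0.714% of all genes, and TGATGNAAT, one form of the amino acid response element bound by ATF4, was in none of the 28 and in 1.08% of genes. A match is a description of these letters and not of binding.

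Secretory cell types held the highest levels. For each class the UMIs of its cells were summed and expressed as CPM, the UMIs of a gene in each 1000000 UMIs of the class, with exact Poisson 95% intervals that cover counting error only. The 16 chaperones and disulfide enzymes together stood at 11950 CPM (11445 to 12471) in NCD and 14507 CPM (14084 to 14940) in HFD plasma-like cells. In mesothelial-like cells the same sum was 11499 CPM (11157 to 11849) in NCD and 4737 CPM (3990 to 5583) in HFD. Progenitor-like cells held 7121 and 4931 CPM, and macrophage-like cells 4072 and 3458 CPM. Among the 8 classes compared, the lowest sums were those of dendritic-like cells, at 2714 and 2720 CPM, and B-like cells, at 2729 and 2359 CPM. These were well below the plasma-like level, although plasma cells arise from B cells. In NCD the intervals of plasma-like and mesothelial-like cells overlapped, and so did those of dendritic-like and B-like cells, while progenitor-like and macrophage-like cells were set apart from each other and from both pairs. In HFD the mesothelial-like interval held the progenitor-like value.

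**Figure D1:**
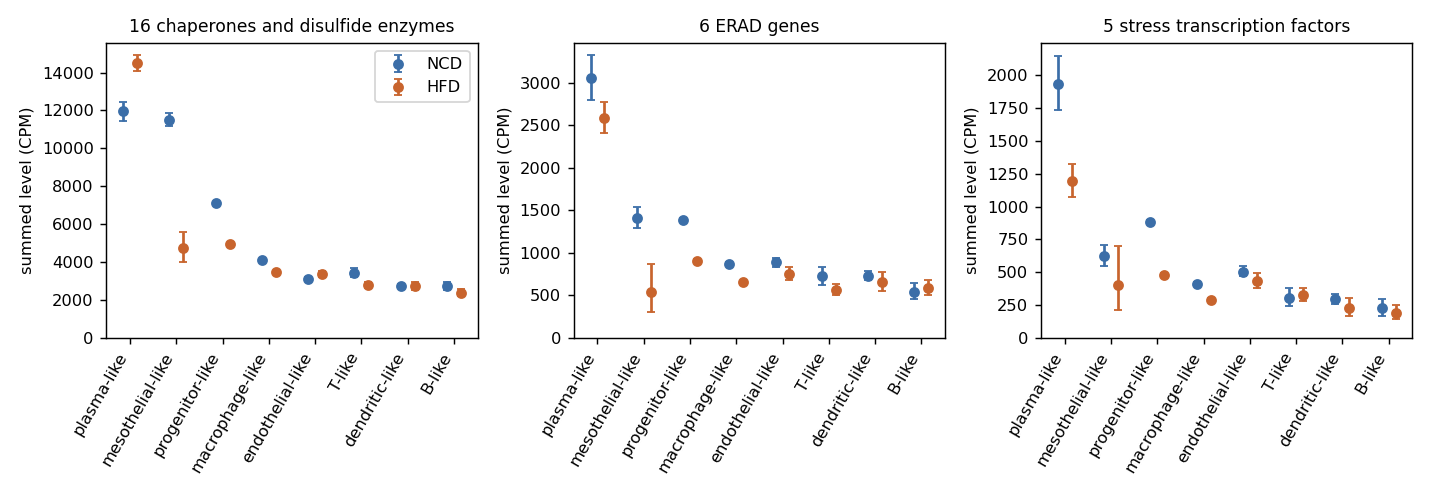
Summed level in CPM (vertical axes) of the 16 chaperones and disulfide enzymes, the 6 ERAD genes and the 5 stress transcription factors in 8 cell classes of the NCD and HFD libraries, with exact Poisson 95% intervals. Plasma-like cells lead all 3 sums in both libraries, and the mesothelial-like chaperone sum lies near that of plasma-like cells in NCD only, at 11499 CPM against 4737 CPM in HFD.

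Plasma-like cells were set against all other kept cells of their own library, with a gene counted as higher or lower when it differed at least 1.5-fold and its exact 95% counting interval left out 1, among genes with at least 10 CPM in either sum and 20 UMIs in all. Of 30 members tested, 20 were higher in NCD plasma-like cells, where 8.41% of 8826 genes were, and 24 in HFD plasma-like cells, where 11.7% of 7889 genes were. No member was lower in either library, against 12.0% and 12.3% of genes. Edem1, a lectin that hands misfolded glycoproteins to ERAD, stood at 714 CPM in NCD plasma-like cells against 58.3 CPM in the other cells, and at 637 against 46.8 CPM in HFD. These were ratios of 12.3 (95% interval 10.2 to 14.7) and 13.6 (11.6 to 15.9). Creld2, a secreted disulfide chaperone, was 5.70 times as high in NCD and 17.4 times as high in HFD. Pdia4, a protein disulfide isomerase, was 5.71 and 8.15 times as high. Xbp1 was 5.63 and 5.89 times as high, at 1650 and 941 CPM. Ssr4, a subunit of the translocon-associated complex, reached 5.71 and 4.45 times the level of other cells, and Sec61b, a subunit of the translocation channel, 3.07 and 3.62 times.

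Of the sensors, Atf6 was 4.26 and 3.25 times as high in NCD and HFD plasma-like cells. Eif2ak3, the sensor of the ATF4 branch, was 3.09 times as high in HFD (1.46 to 5.82), with 10 UMIs. In NCD, with 4 UMIs, it was not past the fold. The members downstream of it were not past the fold in either library. Atf4 stood at 159 CPM in NCD plasma-like cells against 185 CPM in other cells, and at 173 against 121 CPM in HFD, neither past the fold. Atf5 and Ddit3 were not past it in either library, and Trib3, a pseudokinase target of ATF4 and CHOP, had 0 UMIs in both, where 3 UMIs would be 17.0 CPM in NCD and 9.80 CPM in HFD. Canx, Pdia3 and P4hb were also not past the fold in either library. BiP separated the 2 libraries: Hspa5 stood at 1128 CPM in NCD plasma-like cells against 1132 CPM in other cells, a ratio of 0.996, and at 1790 against 731 CPM in HFD, a ratio of 2.45 (2.24 to 2.67).

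Mesothelial-like cells of the NCD library showed another pattern. Of 30 members tested 15 were higher than in the other cells, where 18.2% of 9048 genes were, and 1 was lower, against 14.1%. Among the 16 chaperones 11 were higher. Hspa5 stood at 2686 against 1114 CPM, a ratio of 2.41 (2.26 to 2.57), Dnajc3, the co-chaperone p58IPK, at 627 against 224 CPM, and Manf, a secreted ER stress protein that binds BiP, at 1537 against 543 CPM. Xbp1 stood at 334 against 300 CPM and was not past the fold, and Atf5, at 67.3 against 106 CPM, was the 1 member that was lower. Among 8 classes, the 4 described here and the endothelial-like, T-like, dendritic-like and B-like cells with at least 50 cells in each library, 16 members were highest in plasma-like and 10 in mesothelial-like cells of the NCD library. In HFD 24 were highest in plasma-like and 3 in mesothelial-like cells. The share of all genes highest in each class was not computed, so these counts are a description only. The mesothelial-like sum held 371602 UMIs in NCD but 29977 in HFD, where levels are less exact.

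To compare single cells at 1 depth, each was thinned to 1400 UMIs, which left out no cell. The median number of chaperone UMIs was then 15 in NCD and 11 in HFD plasma-like cells, 14 and 5 in mesothelial-like, 8 and 6 in progenitor-like, 5 and 4 in macrophage-like, and 2 and 3 in B-like cells. The quartiles of progenitor-like cells were 5 and 13 UMIs in NCD and 4 and 9 in HFD, so single cells of the 2 libraries overlapped widely. At the same depth 40.7% (exact 95% interval 39.1 to 42.4) of NCD and 24.1% (22.6 to 25.7) of HFD progenitor-like cells had a UMI of Xbp1, and 76.0% and 36.6% without thinning. In B-like cells, the class with the lowest Xbp1 level among the 8 compared, 7.58% and 5.56% of thinned cells had one, at median depths of 2777 and 2114 UMIs against 4572 and 1984 in progenitor-like cells. Ddit3 was seen in 7.51% (6.63 to 8.46) of thinned NCD and 5.07% (4.32 to 5.90) of thinned HFD progenitor-like cells.

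**Figure D2:**
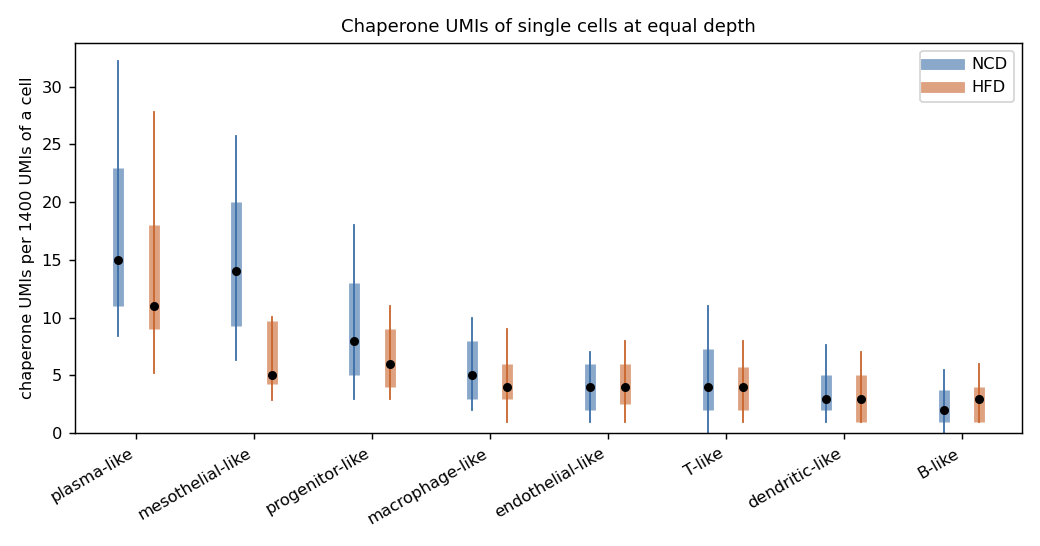
Chaperone UMIs among 1400 UMIs drawn from each cell (vertical axis) for 8 cell classes, with NCD and HFD cells side by side. The dot is the median, the thick bar the quartiles and the thin line the 10th to 90th percentile of cells. Medians run from 15 in NCD plasma-like to 2 in NCD B-like cells.

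In progenitor-like cells the module was lower in the HFD library, most of all its transcription factors and BiP-system chaperones. Diet ratios below are HFD over NCD, with exact conditional 95% intervals for counting error, and the same rule of 1.5-fold applies. Of 30 members tested 14 were lower, where 15.6% of 8086 genes were, and 1 was higher, where 8.09% were. The median ratio of the 30 was -0.55 log2 against -0.22 log2 over the 8086 genes. The summed stress transcription factors stood at 881 CPM in NCD against 477 CPM in HFD, 1.85-fold lower. For ERAD the sums were 1390 and 908 CPM, 1.53-fold lower, and for chaperones 7121 and 4931 CPM, 1.44-fold lower. The 2 translocation subunits summed to 854 and 862 CPM.

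Among the sensors of progenitor-like cells, Atf6 stood at 16.2 CPM in NCD against 10.3 CPM in HFD and was the 1 past the fold. Eif2ak3 was at 21.0 and 14.7 CPM and Ern1, too low to be tested, at 7.14 and 4.70 CPM. Xbp1 stood at 415 CPM in NCD against 207 CPM in HFD, lower with an interval of 1.89-fold to 2.11-fold. Atf5, a factor of the same family as ATF4, was at 199 and 87.7 CPM, 2.27-fold lower (2.09 to 2.47). Ddit3, which encodes CHOP, was at 57.4 and 36.3 CPM and was also lower. Atf4 transcript was at 203 and 143 CPM, a ratio of 0.705 that did not reach the fold.

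Of the 16 chaperones of progenitor-like cells 6 were lower, all listed under the Hsp70 and Hsp90 system, where Creld2 was also placed. Sdf2l1, a BiP cofactor, stood at 296 CPM in NCD against 137 CPM in HFD, 2.16-fold lower (2.02 to 2.31). Creld2 was at 196 and 93.3 CPM, 2.11-fold lower (1.94 to 2.29). Manf was at 810 and 463 CPM, 1.75-fold lower. BiP itself, Hspa5, was at 1690 and 987 CPM, 1.71-fold lower (1.67 to 1.76). Dnajc3 was at 319 and 184 CPM and Hsp90b1 at 830 and 513 CPM, lower by 1.73-fold and 1.62-fold. Dnajb9 and Dnajb11, of the same system, were not past the fold, at 196 and 166 CPM and at 168 and 128 CPM. Neither was any member listed as a lectin or disulfide enzyme: Calr, a calcium-binding lectin chaperone, was at 746 and 717 CPM, Canx at 248 and 197 CPM, Pdia6 at 545 and 412 CPM, Pdia4 at 187 and 182 CPM, and P4hb at 222 and 200 CPM. Hyou1, an Hsp70-like exchange factor of BiP, was the 1 member that was higher, at 15.2 CPM in NCD against 27.0 CPM in HFD, a ratio of 1.78 (1.47 to 2.15).

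ERAD genes of progenitor-like cells were lower in 4 of 6. Sel1l and Syvn1, the adaptor and ligase of the HRD1 complex, stood at 92.2 and 25.6 CPM in NCD and at 53.2 and 13.3 CPM in HFD. Herpud1, which joins that complex and is among the most stress-responsive ERAD genes, was at 204 and 126 CPM, 1.62-fold lower. Selk, a selenoprotein of the ER membrane, was at 887 and 583 CPM, 1.52-fold lower. The 15 members tested and not past the fold ranged from a ratio of 0.669 for Edem1 to 1.21 for Ssr4.

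Genes outside the module gave other values in the same cells, where 15.6% of 8086 genes were lower and 8.09% higher. The summed collagen genes, the main cargo of these cells, stood at 9130 CPM in NCD against 13388 CPM in HFD, 1.47 times as high (1.46 to 1.48). Of 20 further translocation and glycosylation genes 1, Spcs3, was lower and none higher, with sums of 4772 and 4728 CPM. Of 19 other folding genes tested 2 were higher and none lower: Fkbp11, a secretory prolyl isomerase, stood at 56.2 and 115 CPM, and Pdia5 at 14.9 and 27.3 CPM. Of 19 other ERAD genes tested 1, Nploc4, was lower. Of 17 genes of the integrated stress response tested 4 were lower (Psat1, Vldlr, Cebpg and Mthfd2), with Psat1, a serine synthesis enzyme, at 34.6 and 11.2 CPM. Immediate early genes, which tissue digestion induces, summed to 18194 and 17962 CPM, and cytosolic heat shock genes to 4519 and 3363 CPM, 1.34-fold lower. The part of these in the module's difference was not tested.

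**Figure D3:**
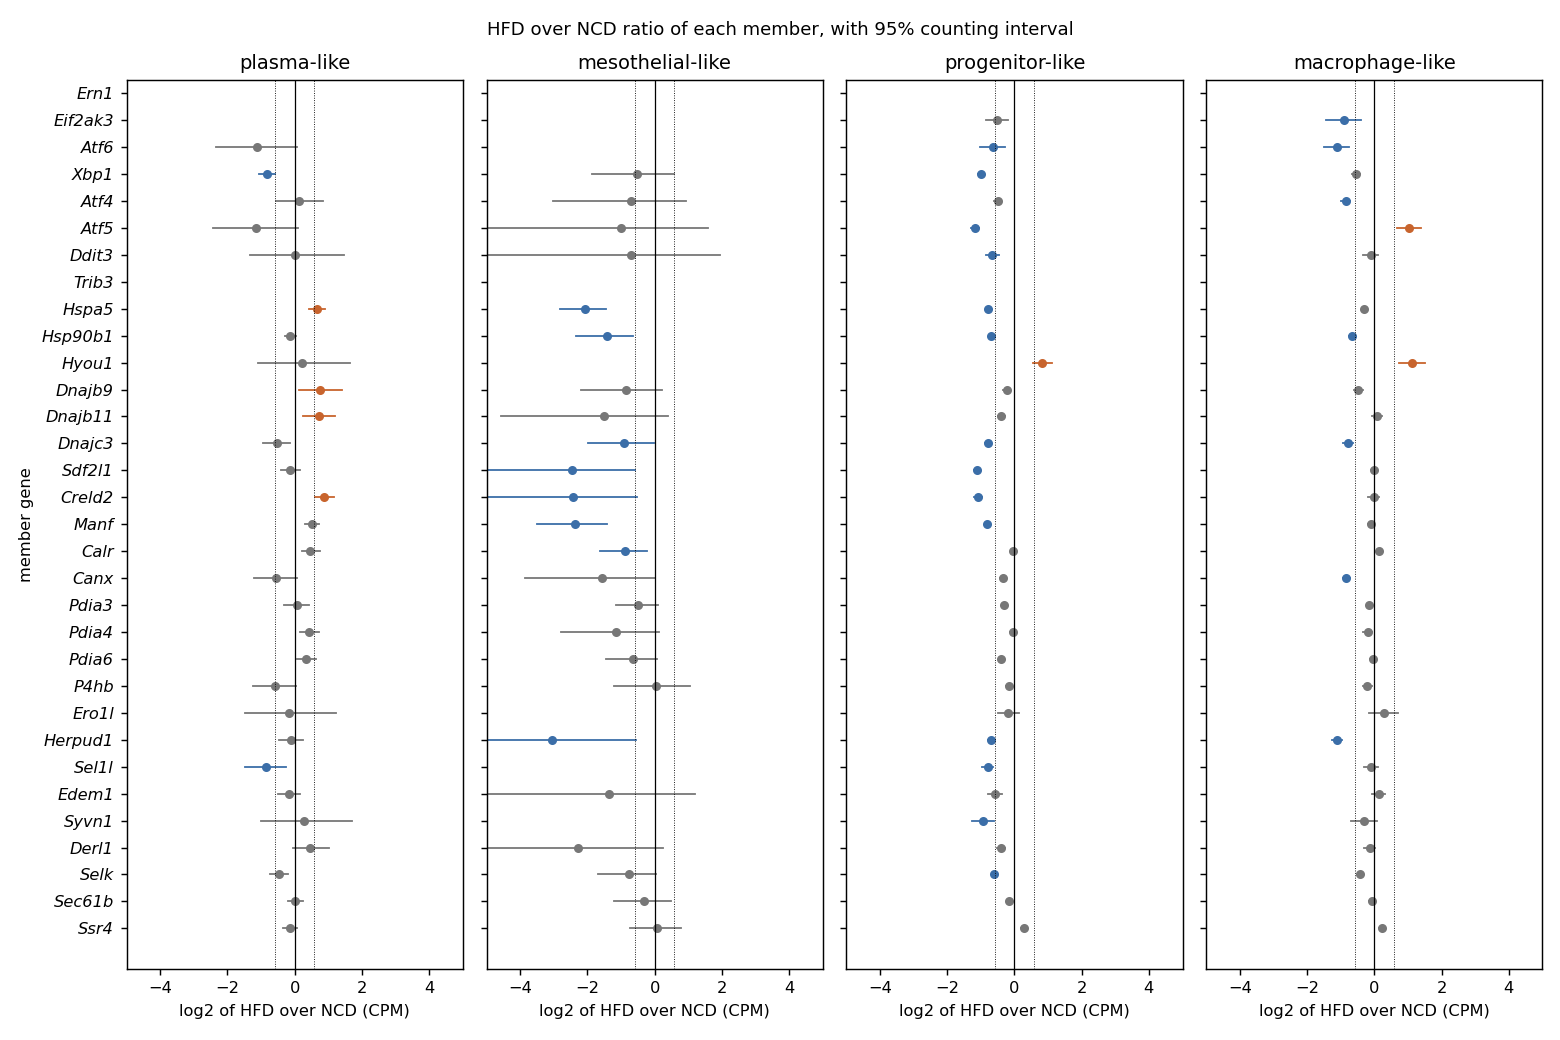
Log2 of the HFD over NCD ratio of CPM (horizontal axis) for each of the 32 members (vertical axis) in 4 cell classes, with 95% counting intervals drawn up to 5 log2 units either way. Orange and blue mark members past 1.5-fold (dotted lines) upward and downward, grey those tested and not past it, and members that were not tested, or had 0 UMIs in HFD, have no point. In progenitor-like cells 14 of 30 lie to the left, and in plasma-like cells 4 of 29 lie to the right.

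Progenitor-like clusters differed among themselves, and most were held by 1 library. In NCD the chaperone sum of 14 clusters with at least 20 cells ranged from 5302 to 10642 CPM, and in HFD that of 10 clusters from 3590 to 6120 CPM. A NCD cluster led by Ccl11 and Hsd11b1 (230 cells) stood at 9940 CPM, with Hspa5 at 3086 CPM and Xbp1 at 753 CPM. Another NCD cluster, led by Fbn1 and Pi16 (388 cells), stood at 5643 CPM, with Hspa5 at 1013 CPM and Xbp1 at 240 CPM. The 4 clusters with at least 20 cells in both libraries were all lower in HFD. The Fbn1 and Clec3b cluster stood at 5834 CPM in 380 NCD cells and 4493 CPM in 51 HFD cells, 1.30-fold lower (1.23 to 1.38). A cluster led by Col3a1 stood at 7657 CPM in 68 and 4727 CPM in 54 cells, 1.62-fold lower (1.52 to 1.73), while its collagen sum was 14097 and 24515 CPM. Summed over the 4 shared clusters, 7 of 30 members were lower, where 7.73% of genes were, and none higher. Creld2 and Manf were among the 7, at ratios of 0.559 and 0.516, and Hspa5 and Xbp1 were not, at 0.873 and 0.814. These sums weight the clusters unequally, since the cluster led by Gpx3 and Gsn, with the highest chaperone level, gave 24 of 751 NCD but 160 of 287 HFD cells. Within each of the 4 clusters Hspa5 stood below its NCD level in HFD, at 3109 and 1519 CPM in that one, 1386 and 684 CPM, 1637 and 853 CPM, and 1096 and 806 CPM in the Fbn1 and Clec3b cluster. Xbp1 stood at 354 and 260, 316 and 252, 277 and 165, and 249 and 205 CPM in the same order. Hyou1, higher over the whole class, stood at 17.9 and 10.5 CPM in the shared clusters.

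**Figure D4:**
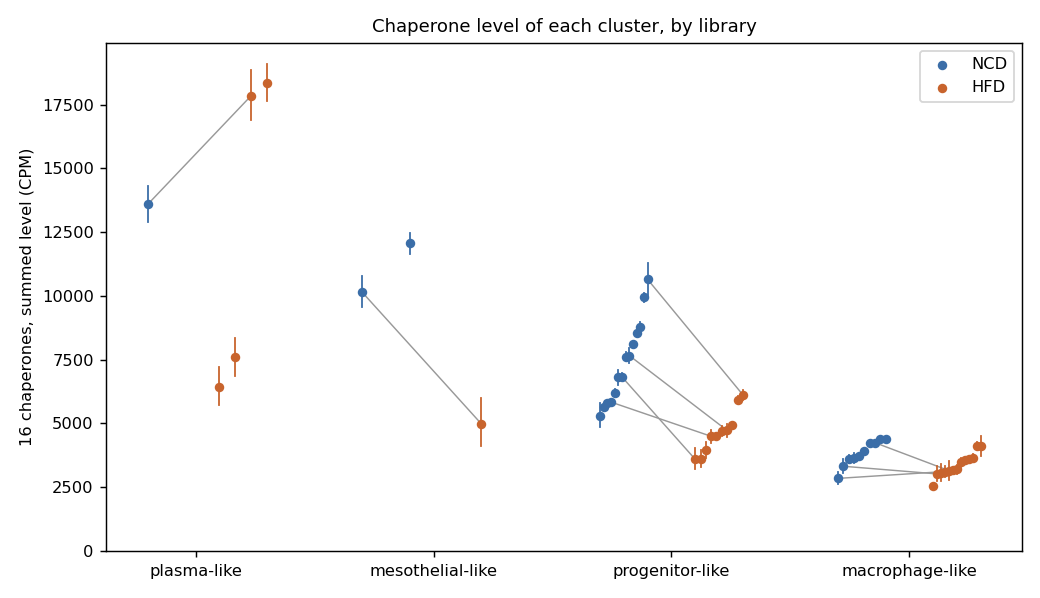
Summed chaperone level in CPM (vertical axis) of every cluster with enough cells in 4 cell classes, as points for the NCD and HFD libraries with exact Poisson 95% intervals, ordered by level within a library. Grey lines join clusters that hold cells of both libraries. All 4 joined progenitor-like clusters are lower in HFD, and 2 HFD plasma-like clusters lie at 6445 and 7589 CPM, below the others.

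The progenitor-like difference was also present between cells of like depth. Among cells of 2000 to 4000 UMIs, 1008 in NCD and 1162 in HFD, the chaperone sum stood at 6633 and 4742 CPM, 1.40-fold lower (1.37 to 1.43), and 17 of 30 members were lower, where 23.0% of genes were. Hyou1 was not past the fold among them, at 24.2 and 28.3 CPM. In cells of 4000 UMIs or more the chaperone sum was 7249 and 5494 CPM. Subtraction of free RNA left the chaperone ratio at -0.47 log2, against -0.53 before.

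Macrophage-like cells held a smaller difference. Of 30 members tested 7 were lower in HFD, where 22.0% of 7426 genes were, and 2 were higher, where 15.7% were. The share of lower members was near the background and that of higher members under it. The chaperone sum was 4072 CPM in NCD against 3458 CPM in HFD, 1.18-fold lower. For ERAD the sums were 867 and 650 CPM, 1.33-fold lower, and for stress transcription factors 410 and 288 CPM, 1.43-fold lower. Translocation subunits stood at 684 and 708 CPM. Immediate early genes were lower in HFD in 11 of 18, with sums of 18326 and 11934 CPM, 1.54-fold lower, and their part in the difference was not tested.

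Both tested sensors and some of the transcription factors, chaperones and ERAD genes were past the fold. Atf6 stood at 24.9 CPM in NCD against 11.5 CPM in HFD, 2.16-fold lower (1.67 to 2.83), and Eif2ak3 at 11.9 and 6.38 CPM. Atf4 was at 177 and 97.5 CPM, 1.82-fold lower (1.66 to 1.99). Atf5 went the other way, at 12.3 and 24.8 CPM, a ratio of 2.02 (1.59 to 2.59). With the free RNA subtracted Atf5 stood at 9.12 and 13.6 CPM, 0.58 log2 above NCD. In the clusters with cells of both libraries it stood at 14.9 and 13.4 CPM, with 23 and 7 UMIs, not past the fold and in the other direction. Herpud1 stood at 143 and 66.5 CPM, 2.15-fold lower (1.94 to 2.40). Canx, the membrane-bound lectin chaperone, was at 287 and 160 CPM, 1.79-fold lower (1.67 to 1.92), and Hsp90b1 at 582 and 364 CPM, 1.60-fold lower. Dnajc3 was also lower, with a log2 ratio of -0.78 (-0.92 to -0.64), and of -1.16 with the free RNA subtracted. Hspa5, at 676 and 544 CPM, Calr, at 548 and 604 CPM, and Creld2, at 75.2 and 74.1 CPM, were not past the fold. Hyou1 was higher, at 10.3 and 22.3 CPM, a ratio of 2.17 (1.67 to 2.83).

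Across macrophage-like clusters the chaperone sum ranged from 2843 to 4394 CPM over 10 NCD and from 2538 to 4110 CPM over 13 HFD clusters. The HFD cluster led by Mmp12, Gpnmb and Lgals3, genes of lipid-associated macrophages (115 cells), stood at 4095 CPM, with Calr at 915 CPM and Herpud1 at 39.6 CPM. Summed over the 3 clusters with cells of both libraries (292 and 108 cells), 7 of 30 members were lower, where 9.56% of genes were, and none higher. These sums weight the clusters unequally. The cluster led by Retnla and Ccl6 held 230 of the 292 NCD but 22 of the 108 HFD cells. Its chaperone sum was 4241 and 3146 CPM, a ratio of 0.742 (0.657 to 0.835). In the cluster led by Cxcl2 and C1qb the ratio was 0.909 (0.799 to 1.03). The cluster led by Stmn1 and Pf4 was not lower, at 2843 and 3112 CPM, a ratio of 1.09 (0.984 to 1.22). Of 20 wider translocation and glycosylation genes none was past the fold in macrophage-like cells, where 22.0% of genes were lower and 15.7% higher. Among other folding genes Fkbp11 stood at 1.44 CPM in NCD against 18.6 CPM in HFD, and Uggt1, the glucosyltransferase that tags misfolded glycoproteins, at 29.9 and 17.0 CPM. Psat1, lower in progenitor-like cells, stood at 8.29 and 17.5 CPM here.

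In plasma-like cells 4 chaperones were higher in HFD, while Xbp1 was lower. The chaperone sum stood at 11950 and 14507 CPM, although the median of thinned cells was 15 in NCD and 11 in HFD. Of 29 members tested 4 were higher, where 13% of 2874 genes were, and 2 were lower, where 8.18% were, so over the whole class the count is near the background. Creld2 stood at 782 CPM in NCD against 1431 CPM in HFD, a ratio of 1.83 (1.51 to 2.23). Hspa5 was at 1128 and 1790 CPM, a ratio of 1.59 (1.35 to 1.88). The J-domain co-chaperones Dnajb11, at 295 and 487 CPM, and Dnajb9, at 164 and 278 CPM, had ratios of 1.65 (1.20 to 2.31) and 1.69 (1.10 to 2.67). Xbp1 was at 1650 and 941 CPM, 1.75-fold lower (1.48 to 2.07), and Sel1l at 278 and 154 CPM, 1.81-fold lower (1.19 to 2.76). The 23 members not past the fold ranged from a ratio of 0.453 for Atf5, with 14 and 11 UMIs, to 1.43 for Manf. Stromal and macrophage markers in plasma-like cells stood at a median of 16.3% of their library level in NCD and 47.7% in HFD. The HFD share was estimated over the whole class, with the mixed clusters described below in it. After subtraction of that free RNA Hspa5 stood at 1127 and 2739 CPM and Xbp1 at 1913 and 1640 CPM.

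The HFD plasma-like class was not uniform. Of its 103 cells 49 lay in 2 clusters in which markers of stromal or macrophage cells stood at or above their level in the whole library: 129% for stromal markers in one and 149% for macrophage markers in the other. Their chaperone sums were 7589 and 6445 CPM. The other 2 HFD clusters, one of them led also by the cell cycle genes Ube2c and Hmgb2, stood at 18350 CPM in 29 cells and 17843 CPM in 25 cells. Thinned to 1400 UMIs, the 54 HFD cells outside the mixed clusters had a median of 16.5 chaperone UMIs, the 49 within them 10, and the 23 NCD cells 15. The split was chosen after the values were seen. The counts of members and the group sums are given with and without these clusters.

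Without the HFD cells of the 2 mixed clusters 9 of 28 members were higher in HFD, where 13% of 2373 genes were, and none was lower, where 8.51% were. The 2 NCD cells that lay in these clusters were kept. The chaperone sum was then 11950 CPM in NCD and 18173 CPM in HFD. The 9 were Hspa5, Dnajb9, Dnajb11, Creld2, Manf, Calr, Pdia4, Pdia6 and Derl1, a channel component of ERAD. Creld2 had a ratio of 2.43, Hspa5 of 1.96 (1.65 to 2.32) and Manf of 1.84 (1.60 to 2.13). Xbp1, at 1650 and 1228 CPM, a ratio of 0.745, was no longer past the fold, and neither was Sel1l. Stricter still, the 1 cluster with at least 9 cells of each library held 16 NCD and 25 HFD cells. There the chaperone sum was 13595 and 17843 CPM, a ratio of 1.31 (1.22 to 1.42), and 7 of 23 members were higher, where 9.82% of genes were. In that cluster Xbp1 stood at 2381 and 1388 CPM, 1.72-fold lower (1.35 to 2.19), and it was 1 of 2 members that were lower, beside Selk, where 7.14% of genes were. Collagen genes, which plasma cells do not make, stood at 1152 and 2159 CPM in the same cluster, and their source was not tested.

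Of 20 wider translocation and glycosylation genes, 3 were higher in HFD plasma-like cells: Sec62, Ssr2, at 300 and 676 CPM, and Ostc, a subunit of the oligosaccharyltransferase, at 306 and 598 CPM. Sec61a1, the pore of the translocation channel, was lower, at 227 and 108 CPM. Of 13 tested integrated stress response genes 4 were higher (Phgdh, Shmt2, Ppp1r15a and Nars), with Phgdh, a serine synthesis enzyme, at 164 and 327 CPM, and 1, Cebpg, was lower, at 108 and 42.5 CPM. Of 12 tested ERAD genes Ube2j1 and Ubxn4 were lower. Erp44 was the 1 of 14 tested folding genes that was higher.

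In mesothelial-like cells the chaperone sum was 2.43-fold lower in HFD, a value that rests on 10 HFD cells with 29977 UMIs. It leaves out 39 HFD cells of a cluster led by Crisp1, whose best class was also mesothelial and which is described below. Of 26 members tested 8 were lower, where 3.21% of 2928 genes were, and none was higher, where 3.52% were. Hspa5 stood at 2686 CPM (998 UMIs) in NCD against 634 CPM (19 UMIs) in HFD, 4.24-fold lower (2.70 to 7.07). Manf was at 1537 CPM (571 UMIs) and 300.2 CPM (9 UMIs), 5.12-fold lower (2.68 to 11.2). Hsp90b1 was at 1160 and 434 CPM, 2.67-fold lower (1.55 to 5.06), and Calr at 1173 and 634 CPM, 1.85-fold lower (1.17 to 3.10). Sdf2l1 and Creld2 had 2 UMIs each in HFD against 137 and 132 in NCD, with ratios of 0.181 (0.0217 to 0.666) and 0.188 (0.0225 to 0.692). Herpud1 had 1 UMI against 103, a ratio of 0.120 (0.00302 to 0.686), and Dnajc3 10 against 233.

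Of the members listed as disulfide enzymes, where Creld2 is not counted, none was past the fold in mesothelial-like cells with an interval that left out 1. Pdia4 stood at 366 and 167 CPM, Pdia6 at 880.0 and 567 CPM, Pdia3 at 1119 and 801 CPM and P4hb at 261 and 267 CPM. The translocation members Ssr4 and Sec61b stood at 536 and 567 CPM and at 576 and 467 CPM. Ern1, Eif2ak3, Atf6, Trib3, Hyou1, Sel1l and Syvn1 had 0 UMIs in the HFD cells, where 3 UMIs would be 100.1 CPM, so their levels were not detectable at this depth. The cluster that held 18 NCD and 9 HFD cells stood at 10145 and 4991 CPM for chaperones, 2.03-fold lower (1.68 to 2.48). Immediate early genes summed to 13646 and 18648 CPM and macrophage markers to 248 and 1868 CPM in NCD and HFD mesothelial-like cells. After subtraction of free RNA the chaperone ratio was -1.26 log2, against -1.28 before.

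Set against the promoter elements, 6 of the 10 members with an ERSE or ERSE-II were lower in HFD progenitor-like cells and 6 of 16 tested members with neither, where 15.6% of genes were. In mesothelial-like cells 6 of 10 and 1 of 14 were lower, where 3.21% were, and in macrophage-like cells 4 of 10 and 2 of 16, where 22.0% were. Atf5, with neither element, was higher in macrophage-like cells. In plasma-like cells 3 of 10 and 1 of 15 were higher, where 13% were, and none of 10 and 2 of 15 lower, where 8.18% were. Hspa5, Creld2 and Dnajb11, whose sites are printed above, were the 3 that were higher in plasma-like cells, and Hspa5 and Creld2 were lower in both progenitor-like and mesothelial-like cells. Calr and Pdia6 carry the same element, and in progenitor-like cells they stood at 717 CPM in HFD against 746 CPM in NCD and at 412 against 545 CPM, not past the fold. Atf6, Hyou1, Manf and Derl1 had no promoter window and are in none of these counts. Of them, Manf was lower in progenitor-like and mesothelial-like cells and Atf6 in progenitor-like and macrophage-like cells. Hyou1 was higher in progenitor-like and macrophage-like cells. A call also depends on the UMIs of a member, and the part of this in these counts was not tested.

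Within their own library, progenitor-like cells had 18 of 30 members higher than the other cells in NCD, where 33.4% of genes were, and none lower, where 21.2% were. In HFD 6 were higher (Eif2ak3, Atf5, Hspa5, Dnajc3, Pdia6 and P4hb), where 28.2% were, and Sdf2l1 and Edem1 were lower, where 18.3% were. Macrophage-like cells had 9 members lower in NCD, where 33.6% were, and none higher, where 15.5% were. In HFD 10 were lower, where 29.5% were, and Sdf2l1 was higher, where 14.3% were. HFD mesothelial-like cells had Dnajc3 and Pdia3 higher, where 6.78% were, and none lower, where 1.82% were.

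B-like cells had 19 of 30 members lower in NCD, where 20.8% of genes were, and 16 in HFD, where 19.4% were. None was higher in NCD, where 10.0% were, and Eif2ak3 was higher in HFD, where 12.9% were. T-like cells had 13 lower and Ero1l higher in NCD, where 17.8% and 14.0% were, and 12 lower and none higher in HFD, where 18.4% and 12.8% were. Dendritic-like cells had 19 lower in NCD, where 36.8% were, and 9 in HFD, where 13.4% were. Edem1 and Sec61b were higher there in NCD, where 11.4% were, and Herpud1 in HFD, where 8.62% were. Endothelial-like cells had 17 of 31 lower and Trib3 higher in NCD, where 18.5% and 21.3% were, and Sdf2l1 lower and none higher in HFD, where 9.77% and 17.3% were.

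Between diets, endothelial-like cells (346 and 211) had 1 of 29 members higher in HFD, Pdia4, at 66.5 and 119 CPM, where 7.24% of genes were, and none lower, where 10.9% were. B-like cells had none of 21 higher, where 5.10% were, and Sdf2l1 and Manf lower, where 4.44% were. T-like cells had 1 of 26 higher, Ddit3, with 1 UMI in NCD and 21 in HFD, and Sdf2l1, Manf, Ero1l and Edem1 lower, where 10.2% and 9.16% of genes were. Dendritic-like cells had Dnajb11 of 24 higher and Hsp90b1 lower, where 7.97% and 6.99% were.

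A cluster of 3 NCD and 39 HFD cells that was led by Crisp1, Spink8 and Defb42, genes of the epididymal epithelium, was left unnamed. Its best class was mesothelial, with 8 markers up and Krt19 and Upk3b among its leading genes. The choice to keep it out of the mesothelial-like class was made after the clusters were seen. Its HFD chaperone sum was 4197 CPM (3809 to 4613), against 4221 CPM in the other HFD cells. Of 31 members tested none was higher, where 6.55% of genes were, and Hsp90b1 and Sdf2l1 were lower, where 3.38% were.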

How the data were processed

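The deposited tables hold UMI counts for every gene in each cell. The submitters' processing notes name Cell Ranger, Seurat and the mouse build mm10, and their versions are not given in the sources used here. A cell was kept if it had 500 genes or more, no fewer than 1000 UMIs and a mitochondrial share of 20% or less. Doublets were called with Scrublet in scanpy 1.11.5 at an expected rate of 5%. Its own threshold called 0 HFD barcodes, so there the 5% with the highest scores were left out (339 barcodes, and 183 in NCD). Both libraries were clustered together without integration (2000 variable genes without the module and wider lists, 30 principal components, 15 neighbours, 77 clusters after a second round). A cluster was named when at least 3 markers of a class were 1.5-fold up, 1 was among its 10 leading genes and no other class had more there. The cluster led by Crisp1, Spink8 and Defb42 met these conditions and was left unnamed by a further one, chosen after the clusters were seen. Details of this rule were set after the first clusters were seen. For plasma cells 6 of the 12 listed markers could be used.

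Counts were summed per class and library. Ratios carry exact conditional binomial intervals, and levels exact Poisson ones, at 95%. Medians of ratios use genes with at least 5 UMIs expected in each sum. UMIs of 1 library are not replicates, and nothing is known of the spread between mice. Free RNA was estimated as the median level of 15 stromal or 7 macrophage markers relative to the whole library, and that share of the library profile was subtracted. In each class up to 8 members past the fold either way, ranked by the interval end nearest to 1, and up to 3 genes of each wider list were to be named with values. Members named beyond these were chosen after their values were seen, to account for the whole module. The members and lists were chosen with earlier results of these data known. Alternatives were free RNA subtraction, clusters with little free RNA, a stricter cell filter, another scaling and classes from a score of each cell. The steps were tested on simulated data. Python 3.11.15, numpy 2.4.6, scipy 1.17.1 and pandas 2.3.3 were used.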

Additional observations from a re-analysis of the deposited data

Results flagged for a closer look

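Hspa5, Creld2 and Atf5 lay past 1.5-fold in opposite directions in different cell classes under the same contrast of HFD over NCD, and these differences were not tested, since each diet has 1 library. Hspa5 had a log2 ratio of 0.67 in plasma-like cells against -0.78 in progenitor-like and -2.08 in mesothelial-like cells. Creld2 had 0.87 in plasma-like cells against -1.07 in progenitor-like and -2.41 in mesothelial-like cells. Atf5 had 1.02 in macrophage-like cells against -1.18 in progenitor-like cells. After subtraction of free RNA the signs stayed, with Atf5 at 0.58 in macrophage-like cells. In macrophage-like clusters with cells of both libraries the Atf5 call was lost, at 14.9 and 13.4 CPM (95% interval of the ratio 0.326 to 2.17), so its directions were not opposite there.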

How the results depend on the processing

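No paired analysis was possible because each diet has 1 library, and no replicate could be left out for the same reason. All values here are log2 ratios of HFD over NCD for chaperones, ERAD genes and stress transcription factors, in that order unless named. As first computed they were 0.28, -0.24 and -0.69 in plasma-like, -1.28, -1.40 and -0.64 in mesothelial-like, -0.53, -0.61 and -0.89 in progenitor-like, and -0.24, -0.42 and -0.51 in macrophage-like cells. The plasma-like ERAD sum turned from lower to higher with free RNA subtracted (0.30) and without the mixed clusters (0.046). The other sums kept their direction under every alternative that could be computed. With free RNA subtracted, plasma-like chaperones and transcription factors stood at 0.85 and -0.18, progenitor-like sums at -0.47, -0.56 and -0.81, and macrophage-like sums at -0.35, -0.54 and -0.70. In clusters with little free RNA, progenitor-like sums stood at -0.47, -0.54 and -0.80, mesothelial-like chaperones and transcription factors at -1.59 and -2.02 (1 HFD cell), and macrophage-like ones at -0.28 and -0.69. No HFD plasma-like cluster had that little. With the stricter cell filter, plasma-like chaperones and transcription factors stood at 0.55 and -0.25, progenitor-like chaperones and ERAD at -0.48 and -0.54, and macrophage-like chaperones at -0.20. With median-of-ratios scaling, set by the median gene (-0.13 in progenitor-like cells), progenitor-like sums stood at -0.40, -0.48 and -0.75 and macrophage-like chaperones at -0.28. With classes from the marker score of each cell, plasma-like sums stood at 0.17, -0.067 and -0.44 and macrophage-like transcription factors at -0.60. In alternatives added after seeing the data, plasma-like chaperones and transcription factors stood at 0.60 and -0.36 without the mixed clusters. In clusters of both libraries, plasma-like chaperones and ERAD stood at 0.39 and -0.067, mesothelial-like chaperones at -1.02, progenitor-like sums at -0.30, -0.38 and -0.49 (within each of these 4 clusters chaperones were 1.30-fold to 1.90-fold lower, more than in their sum, in which the cluster with the highest level held 160 of 287 HFD cells), and macrophage-like sums at -0.36, -0.36 and -0.64. Within the macrophage-like clusters of both libraries the chaperone ratios were 0.742, 0.909 and 1.09, and did not share a direction. In cells of 2000 to 4000 UMIs, chaperones and ERAD stood at -0.48 and -0.67 in progenitor-like and at -0.21 and -0.51 in macrophage-like cells. All 38 called member ratios kept their sign after subtraction, and 23 stayed within their counting interval. The cause of each shift was not tested. With no filter on low values, the share of all genes past 1.5-fold fell from 21.2% to 7.09% in plasma-like and from 6.73% to 3.11% in mesothelial-like cells. The mesothelial-like HFD values rest on 10 cells.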
